A study of Mus musculus with 12 samples.

Results

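The genes described here are 6 genes of the melanocyte, the cell that makes melanin: Tyr, Tyrp1, Dct, Mlana, Mitf and Kit. They were chosen by their levels in these same data, in particular by how far the arrays of postnatal day 21 (P21) differed in them, so that difference is given as a description and carries no test. All 6 were found, on 12 of the 45037 probe sets tested, among 18193 genes. A probe set was taken only where the platform annotation gives it 1 gene symbol, and each gene is represented by the probe set with the highest mean over the 12 arrays. The arrays hold RNA of the auditory nerve of CBA/CaJ mice of both sexes at P0, P3, P7, P10, P14 and P21, 2 arrays per stage, with no treatment and no genetic alteration in any group. P0, the day of birth, was the baseline of the study for the later stages. Dissection removed the outer bony shell, the lateral wall and most of the sensory epithelium, and left the modiolus, the bony core that carries the nerve, so the tissue is enriched for nerve and not pure. Per the labels, left and right cochleas of 1 mouse were pooled for each array.

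Melanin is made inside melanosomes, which are relatives of the lysosome. Tyrosinase, encoded by Tyr, starts the synthesis by oxidising tyrosine, and the related enzymes dopachrome tautomerase (Dct) and Tyrp1 act further along the path to eumelanin. Mlana is a membrane protein of early melanosomes, Mitf is the transcription factor that drives the pigment programme, and Kit is the receptor through which Kit ligand keeps melanocytes alive. In the cochlea, pigment cells are best known as the intermediate cells of the stria vascularis, the potassium-secreting tissue of the lateral wall, and melanocytes are also found in the modiolus. Neither Mitf nor Kit is restricted to pigment cells, since osteoclasts and mast cells use Mitf and mast cells use Kit.

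The promoters of the 3 melanogenic enzymes are printed because Tyr and Dct moved together from array to array while Tyrp1 followed them only in part. Each window runs from 250 bases before the annotated transcription start to 50 bases after it, on the gene's own strand, from RefSeq on GRCm38.p6. Capitals mark TCATGTG, the extended E-box known as the M-box, on either strand. The Tyr window lies at chr7:87493463-87493762 on the minus strand, the Tyrp1 window at chr4:80833963-80834262 on the plus strand and the Dct window at chr14:118052197-118052496 on the minus strand.
Tyr: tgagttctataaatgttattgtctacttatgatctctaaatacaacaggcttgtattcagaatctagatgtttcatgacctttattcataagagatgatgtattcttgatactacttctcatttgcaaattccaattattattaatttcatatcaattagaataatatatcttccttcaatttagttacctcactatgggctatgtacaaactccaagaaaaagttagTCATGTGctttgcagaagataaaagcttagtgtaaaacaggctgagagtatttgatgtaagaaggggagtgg
Tyrp1: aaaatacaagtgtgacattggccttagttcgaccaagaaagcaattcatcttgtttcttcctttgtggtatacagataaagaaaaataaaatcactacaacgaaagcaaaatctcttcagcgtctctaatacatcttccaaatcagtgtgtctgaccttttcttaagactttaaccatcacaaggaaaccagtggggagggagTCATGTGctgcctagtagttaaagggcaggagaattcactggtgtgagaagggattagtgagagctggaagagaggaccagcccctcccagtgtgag
Dct: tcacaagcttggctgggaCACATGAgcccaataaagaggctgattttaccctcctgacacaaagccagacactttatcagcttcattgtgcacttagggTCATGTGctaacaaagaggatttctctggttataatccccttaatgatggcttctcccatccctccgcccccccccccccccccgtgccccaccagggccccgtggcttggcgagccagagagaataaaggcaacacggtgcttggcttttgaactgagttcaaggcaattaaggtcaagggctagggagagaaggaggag
The match begins 22 bases before the start in Tyr and 47 bases before it in Tyrp1. Dct holds the letters in both orientations, beginning 151 bases before the start as TCATGTG and 232 bases before it as CACATGA. Of all 32851 promoter windows of this length in the table, 3.77% hold the 7 letters on either strand, and 14.2% hold the shorter CATGTG that lies inside them. Among the 6 pigment genes, 5 have an entry and 3 of those hold the 7 letters. The 3 Mitf windows and the 2 Kit windows hold none. Of the 16 melanosome genes listed beside them, 12 have an entry, and Mc1r, Slc24a5, Slc7a11 and Trpm1 hold the motif. A match is a description of the letters only.

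Several facts about the arrays come before the results. Array medians lay between 6.71 and 6.79 on the log2 scale, on which 1 unit is a 2-fold difference. Markers of the labelled tissue were high on every array, with the mean of 6 Schwann cell genes between 10.72 and 11.90 and that of 6 neuron genes between 9.78 and 11.46. Otos, a fibrocyte gene, was high as well at P21, with 14.38 and 14.35, against 5.41 and 6.37 at P0. Whether that RNA came from remains of the lateral wall, which was dissected away, was not tested. Xist, which is made from the inactive X chromosome in females, was over 12 on 9 arrays. The Y-linked genes Eif2s3y, Kdm5d and Uty were all over 7.5 on 9 arrays too, and 6 arrays (P0 replicate 1, P7 replicate 2, both of P10, P14 replicate 1 and P21 replicate 1) exceeded both limits, which were set after the values were seen. Those 6 arrays go against the label of 1 mouse per array, so whether an array stands for 1 animal is unsettled. In tissue RNA, fewer cells of a type and less RNA per cell cannot be told apart.

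Dct had the largest spread between arrays of a stage among the 6 genes. Its log2 levels for replicates 1 and 2 were 9.62 and 10.49 at P0, 11.48 and 7.76 at P3, 6.77 and 9.18 at P7, 10.16 and 6.52 at P10, 8.56 and 7.30 at P14, and 11.78 and 7.07 at P21. Only at P0 and P14 did the arrays of a stage read within 1.26 log2 units of each other, and the level of P21 replicate 1 was the highest of all 12. Within a stage the SD of Dct, pooled over all 6 stages, was 2.19, which is rank 10 of 45037 probe sets, whose median was 0.14. Because it includes the P21 arrays used in the choice of genes, this rank is a description. At P21 the arrays differed by 4.71 log2 units, or 26.2-fold, which is the difference the choice of genes rests on. The same gene differed 13.2-fold at P3 and 12.5-fold at P10 with replicate 1 higher, and 5.31-fold at P7 with replicate 2 higher. By the size of this difference Dct was rank 1 of 18193 genes at P10, rank 2 at P21, rank 4 at P7 and rank 6 at P3.

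Tyr, the gene of the rate-limiting enzyme, followed Dct. Tyr read 7.25 and 7.90 at P0, 10.42 and 6.31 at P3, 4.99 and 6.78 at P7, 7.22 and 5.23 at P10, 5.75 and 5.25 at P14, and 9.19 and 5.53 at P21. The high arrays were again P3 replicate 1 and P21 replicate 1, while P7 replicate 1 was the lowest. Its replicates stood 17.3-fold apart at P3, 12.6-fold at P21, 3.97-fold at P10 and 3.46-fold at P7, and less than 2-fold apart at P0 and P14. Of the other 2 probe sets of Tyr, 1456095_at had the same high arrays, 8.43 at P3 replicate 1 and 7.75 at P21 replicate 1, over 3.78 and 4.04 on their partners. The third, 1448821_at, lay in the lowest 25% of probe sets on 11 of the 12 arrays and exceeded that only at P3 replicate 1, with 6.29.

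Mlana, the melanosome membrane protein, has a single probe set and shared this pattern. It read 5.51 and 6.13 at P0, 8.60 and 5.23 at P3, 4.65 and 5.50 at P7, 5.73 and 4.95 at P10, 5.15 and 4.93 at P14, and 7.86 and 5.41 at P21. On the same pair of arrays it stood at 7.86 or more, and on the other 10 at 6.13 or less. The replicates differed 10.3-fold at P3 and 5.46-fold at P21.

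Tyrp1 shared the early part of the pattern and not the late part. It read 6.01 and 7.63 at P0, 6.87 and 5.30 at P3, 5.24 and 5.24 at P7, 5.14 and 5.52 at P10, 5.02 and 5.07 at P14, and 5.74 and 5.45 at P21. At P0 and P3 the replicates stood 3.07-fold and 2.97-fold apart, and at P21 they stood 1.22-fold apart, on the arrays where Dct differed 26.2-fold. The other probe sets of Tyrp1 were dim: 1415862_at lay in the lowest 25% on all 12 arrays, and 1439409_x_at read between 4.86 and 5.76.

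**Figure D1:**
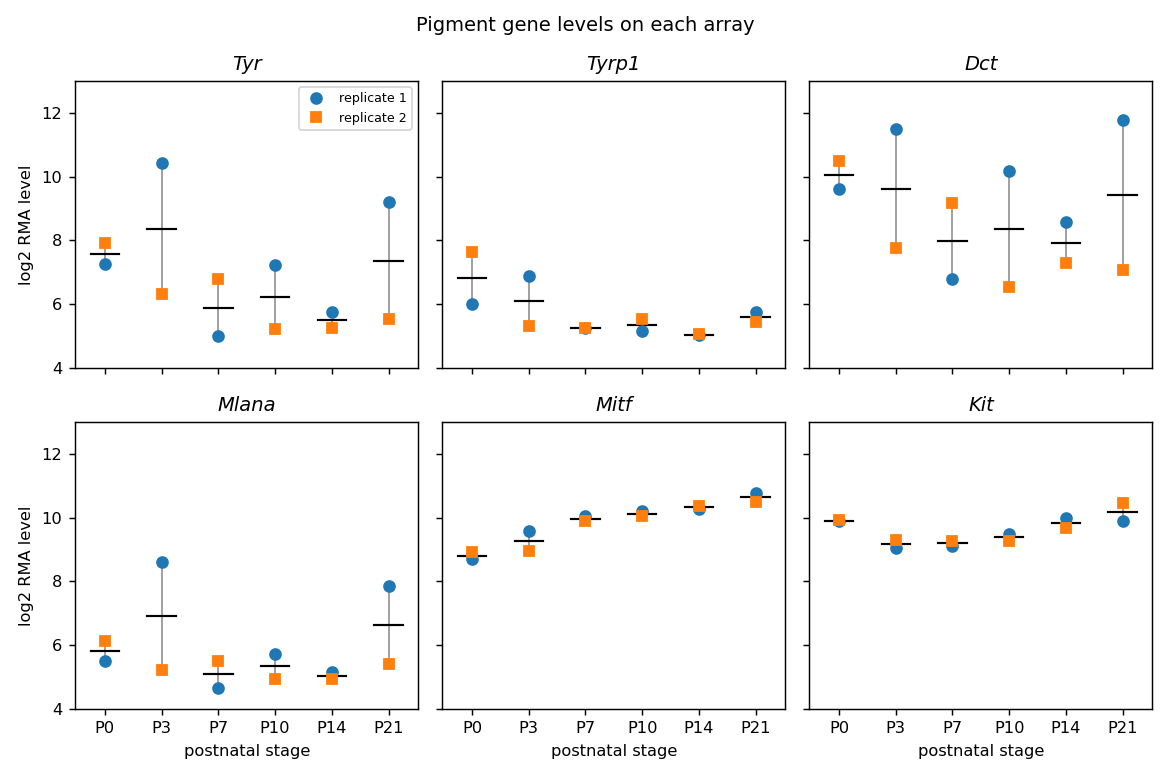
Log2 RMA level (vertical axis) of the 6 pigment genes at each postnatal stage (horizontal axis), with replicate 1 as a circle, replicate 2 as a square, a grey line joining them and a black bar at their mean. Dct at P21 reads 11.78 and 7.07 on its arrays, whereas Mitf reads 10.79 and 10.48 there.

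Mitf and Kit behaved differently from the enzymes, with replicates closer than those of Dct and Tyr and a course over age. Their within-stage SDs were still above those of 84.0% and 81.07% of probe sets. Mitf read 8.70 and 8.91 at P0, 9.59 and 8.94 at P3, 10.04 and 9.89 at P7, 10.20 and 10.06 at P10, 10.27 and 10.37 at P14, and 10.79 and 10.48 at P21. Every array from P7 on was above every array of P0 and P3, and the within-stage SD was 0.23. Kit read 9.90 and 9.93 at P0, 9.04 and 9.31 at P3, 9.11 and 9.27 at P7, 9.49 and 9.28 at P10, 9.99 and 9.68 at P14, and 9.91 and 10.46 at P21. The Kit arrays of P3, P7 and P10 all lay below both arrays of P0, and those of P14 and P21 overlapped P0. Its within-stage SD was 0.21, and its other probe set, 1415900_a_at, moved little, between 5.69 and 6.11.

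How often such differences between arrays of a stage arise was counted over all genes. At P21, where the choice of genes used the difference, 3 of the 6 pigment genes were over 2-fold apart, beside 0.951% of all genes. The genes were chosen with earlier results of these data known, so the counts at the other stages are a description too. There, 4 of 6 were over 2-fold apart at P3 (0.764% of all genes), 2 at P7 (0.412%), 2 at P10 (0.236%), 1 at P0 (0.165%) and 1 at P14 (1.45%). Dct was among them at P3, P7, P10 and P14 and Tyr at P3, P7 and P10. Tyrp1 was the gene at P0. The direction was not fixed by the replicate number, with replicate 2 the higher at P0 and P7.

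**Figure D2:**
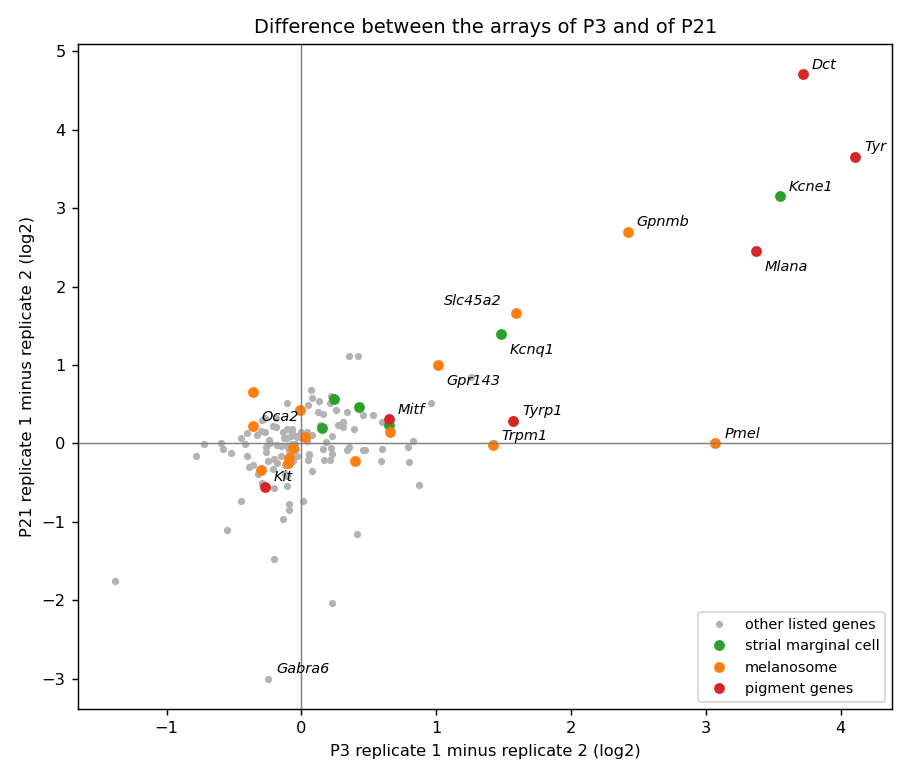
Log2 difference between replicates 1 and 2 at P3 (horizontal axis) and at P21 (vertical axis) for the pigment genes (red), melanosome genes (orange), strial marginal cell genes (green) and all other listed genes (grey). Tyr (4.11 and 3.66), Dct (3.72 and 4.71), Mlana (3.37 and 2.45) and Kcne1 (3.55 and 3.15) lie at the upper right, whereas Pmel (3.07 and 0.00) and Tyrp1 (1.57 and 0.29) are far from 0 at P3 only.

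The change with age was tested against P0 with limma over all 12 arrays, and a gene was called where its Benjamini-Hochberg adjusted p was under 0.05 and its fold over 1.5. Of the 6 genes, 1 was called at P3 (3.78% of all probe sets and 5.39% of all genes were), 2 at P7 (11.1% and 15.0%), 1 at P10 (19.3% and 24.4%), 2 at P14 (21.4% and 27.4%) and 1 at P21 (27.2% and 32.2%). Between stages from P3 on, 1 was called for P7 against P3 (9.98% of all probe sets and 13.2% of all genes), and none for P10 against P7 (0.231% and 0.385%), P14 against P10 (0.0% of both) or P21 against P14 (2.45% and 2.08%). Because the P21 arrays took part in the choice of the genes, the P21 values are read as a description. Their spread also enters the test at every other stage. The median log2 change of the 6 genes was 0.01 at P3, -1.16 at P7, -0.94 at P10, -1.28 at P14 and 0.03 at P21, where the median over all probe sets stayed between -0.01 and 0.04.

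Mitf, the master regulator, rose from P7 on. It averaged 9.96 ± 0.11 at P7 and 8.80 ± 0.15 at P0 (SD, n = 2 each), a log2 change of 1.16 ± 0.19 (SE, limma adjusted p = 0.003). Relative to P0 the fold was 2.51 at P10 (limma adjusted p = 0.000697), and 2.86 at P14 (0.000265), and as a description it was 3.56 at P21. The calls at P7, P10 and P14 held in each of the 12 fits that left out 1 array. The weaker probe set of Mitf, 1422025_at, was called at P7, P10 and P14 too, with log2 changes of 1.01, 0.97 and 0.99, and its change at P21 was 0.66. At P21 its arrays read 5.76 and 6.48, so the lower one lay near the P3 readings of 6.22 and 5.66. The step at P7 against P3, a log2 change of 0.70 ± 0.19 (adjusted p = 0.0368), was lost in 9 of the 12 fits, those without either array of P0, P7, P10 or P14 and without P3 replicate 2 (adjusted p between 0.0512 and 0.207). Between neighbouring stages from P7 to P21 Mitf did not pass the test, with log2 changes of 0.17, 0.19 and 0.32.

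Kit was lower in the first week on the probe set that represents it. It averaged 9.18 ± 0.19 at P3 and 9.91 ± 0.02 at P0 (SD, n = 2 each), a log2 change of -0.74 ± 0.18 (SE, limma adjusted p = 0.0479). At P7 it averaged 9.19 ± 0.11, a log2 change of -0.72 ± 0.18 from P0 (adjusted p = 0.0238). The P3 call held only in the fits without either P21 array and was lost in the other 10 fits that left out 1 array (adjusted p between 0.0529 and 0.208). The P7 call was lost without either array of P0 (adjusted p = 0.102 and 0.113) or of P7 (0.156 and 0.0539). At P10 the change of -0.53 ± 0.18 did not pass (0.0552), and at P14 and P21 it was -0.08 and 0.27.

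Tyrp1 passed the test as lower at P14, where both its arrays lay in the lowest 25% of probe sets. At P14 it averaged 5.04 ± 0.04, against 6.82 ± 1.15 at P0 (SD, n = 2 each), a log2 change of -1.78 ± 0.52 (SE, limma adjusted p = 0.0252). With the mean of all 3 probe sets the change was -0.88 (adjusted p = 0.0282). The dim probe sets 1415862_at and 1439409_x_at did not pass by themselves, with -0.51 and -0.35 (limma adjusted p = 0.132 and 0.267). By the methods' t-test at its own threshold, unadjusted, Tyrp1 did not pass there and Tyr did. Without P0 replicate 2, the array with the highest Tyrp1, the change was -0.97 (adjusted p = 0.203), and without P14 replicate 1 or 2 it was -1.75 and -1.80 (0.0933 and 0.0916). The changes at P7 and P10 were -1.58 and -1.49, with adjusted p of 0.0675 and 0.0561, and at P21 it was -1.23.

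Tyr, Dct and Mlana were called in none of the 9 comparisons. At P14 against P0 the log2 changes were -2.08 ± 1.38 for Tyr, -2.12 ± 1.69 for Dct and -0.78 ± 0.98 for Mlana (SE). For Dct this is a 4.36-fold difference that the spread between replicates, pooled over stages, does not separate from 0 (limma adjusted p = 0.398). That pooled spread includes the P21 arrays used in the choice of genes. The lack of a call for Tyr, Dct and Mlana is therefore a description at every stage. Fitted on the 4 arrays of P14 and P0 alone, where replicates lay closer, the P14 changes passed, with limma adjusted p of 0.00206 for Tyr, 0.0146 for Dct and 0.035 for Mlana. Both Tyr arrays of P14 (5.75 and 5.25) lay below both of P0 (7.25 and 7.90), and so did those of Dct and Mlana. At P21 the means of Tyr and Dct were within 0.21 and 0.63 log2 units of P0, but they rest on arrays that stood 12.6-fold and 26.2-fold apart: without P21 replicate 1 the Dct change was -2.98, and without replicate 2 it was 1.72.

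**Figure D3:**
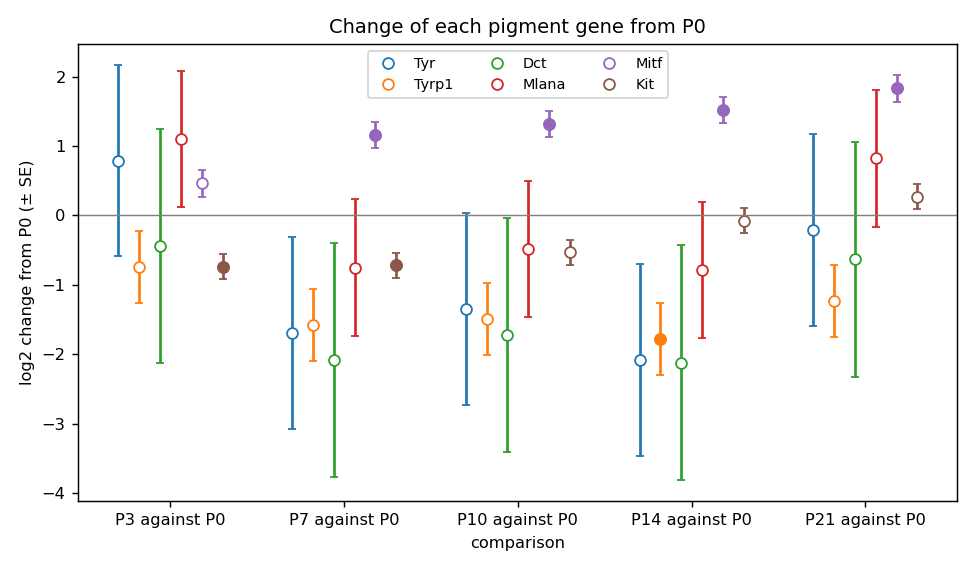
Log2 change of each pigment gene from P0 (vertical axis, ± SE of the fit) at P3, P7, P10, P14 and P21 (horizontal axis), with filled points where the change was called. The SE is 1.69 for Dct and 1.38 for Tyr but 0.19 for Mitf and 0.18 for Kit.

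Likeness among the 6 genes was described by correlation over the 12 arrays, which share their tissue, stage and normalization. Tyr went with Dct (Pearson r = 0.94, Spearman rho = 0.97, n = 12) and with Mlana (0.96 and 0.97). Leaving out P3 replicate 1 and P21 replicate 1, r was 0.95 for Tyr with Dct and 0.92 for Tyr with Mlana. Tyrp1 was less like Tyr (0.65) and Dct (0.57), and Mitf gave -0.19 with Tyr and -0.13 with Dct. Without the same pair of arrays Mitf was inverse to both, with -0.66 and -0.48. Kit gave -0.12 with Tyr and 0.03 with Dct, and 0.16 and 0.19 without that pair.

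The genes outside the 6 whose course was most like the mean standardised level of Tyr, Tyrp1, Dct and Mlana were Kcnq1, Kcne1, Tnfrsf10b, Enpep, Gpr143, Gpnmb, Slc45a2, Gsta2, Bcl2l10 and Gsc, with r between 0.90 and 0.97 over the 12 arrays. Gpr143, Gpnmb and Slc45a2 are melanosome genes. Kcnq1 and Kcne1 are the subunits of the potassium channel of strial marginal cells. Kcne1 read 8.53 and 9.01 at P0, 9.72 and 6.17 at P3, 5.46 and 6.62 at P7, 7.07 and 5.39 at P10, 5.88 and 5.75 at P14, and 9.13 and 5.98 at P21, so P3 replicate 1 and P21 replicate 1 were high in it as in Tyr and Mlana, and both P0 arrays were about as high as P21 replicate 1. Kcne1 gave r = 0.94 with Tyr and 0.92 with Dct. With P3 replicate 1 and P21 replicate 1 left out, 5 of the 10 genes were still among the 10 most like.

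Marker lists of cells that the dissected tissue could hold were set beside the pigment genes. Of 8 strial marginal cell genes, 6 were matched, and 2 of them, Kcne1 and Kcnq1, were over 2-fold higher on replicate 1 at both P3 and P21. Among all 18193 genes, 70 were over 2-fold higher on replicate 1 at P3 and 99 at P21. The mean of the marginal list was 8.99 and 7.91 at P3 and 8.82 and 7.81 at P21, while it was 8.41 and 8.71 at P0 and between 7.51 and 7.89 on the arrays of P7, P10 and P14. Bsnd, Esrrb, Lmx1a and Slc12a2 differed less, by 0.65, 0.24, 0.43 and 0.15 log2 units at P3. The part of marginal cell RNA in the pigment gene differences was not tested. Strial basal cell and fibrocyte genes gave means of 11.31 and 10.85 at P3 and 12.29 and 12.00 at P21. Slc26a4 was the 1 of 10 over 2-fold apart at P3, where 0.764% of all genes were. Of 4 retinal pigment epithelium genes, Rpe65 and Lrat lay in the lowest 25% on 11 and 12 arrays. The exception for Rpe65 was P21 replicate 1, at 5.50, beside 4.98 on replicate 2. Rpe65 was the 1 gene of the 4 called at P21 against P0, with a log2 change of 0.78, where 32.2% of all genes were called. Rlbp1, the 1 gene of the 4 over 2-fold apart at P21 (0.951% of all genes were), read 9.79 and 8.68 there. Keratinocyte genes, as for hair-bearing skin, did not differ over 2-fold at P3 or P21, where only 0.764% and 0.951% of all genes did. Krt14 and Flg lay in the lowest 25% on 11 and 12 arrays.

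Arrays with more pigment gene RNA also differed from their partners elsewhere. At P21, replicate 1 was lowest relative to replicate 2 in Gabra6, Glra1, Gabrb2, Lamp5 and Scg2, with differences of -3.00, -2.93, -2.54, -2.52 and -2.43 log2 units. Gabra6 is a receptor subunit of cerebellar granule neurons, and 3 of the 5 genes listed for those cells were over 2-fold lower on replicate 1, with a list median of -1.76 log2 units. Of the neuron, inhibitory neuron and marrow progenitor lists, 1 gene each was over 2-fold lower on that array. Among all 18193 genes, 74 were over 2-fold lower on it. The 5 genes highest on P21 replicate 1 were Eif2s3y, Dct, Kdm5d, Gsta2 and Uty, 3 of them Y-linked. Eif2s3y read 9.52 and 3.83 at P21 and 10.31 and 4.36 at P3, so at both stages the array with high Dct was also the one with Y-linked RNA. Dct was higher on replicate 2 at P7, where Eif2s3y read 9.49 and 8.89 and Xist 5.51 and 12.55 on replicates 1 and 2. At P10 Eif2s3y read 9.74 and 9.34 while Dct differed 12.5-fold, and at P14 it read 9.07 and 3.76 while Dct differed 2.39-fold. The part of these differences in the pigment result was not tested. The 3' to 5' balance of Actb, a sign of RNA quality, was 2.32 and 2.03 log2 units at P21, and lay between 0.81 and 1.41 on the other 10 arrays.

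A minority of the other melanosome genes differed between replicates as Tyr, Dct and Mlana did. Of 16 listed, 15 were matched, of which 5 were over 2-fold higher on replicate 1 at P3 and 2 at P21. Of all 18193 genes, 70 were at P3 and 99 at P21. The list was chosen with earlier results known, so these counts are a description. The list median differences were 0.03 and 0.08 log2 units. Gpnmb, a melanosome glycoprotein that macrophages also make, read 9.09 and 6.67 at P3 and 9.05 and 6.35 at P21. Slc45a2, a melanosome transporter, read 7.99 and 6.40 at P3 and 7.94 and 6.27 at P21, and Gpr143, the receptor of ocular albinism, read 6.11 and 5.10 at P3 and 5.96 and 4.96 at P21. All 3 were thus high on the arrays on which Tyr, Dct and Mlana were high. Pmel, which forms the fibrils on which melanin is laid down, read 8.99 and 9.89 at P0, 11.06 and 7.99 at P3, and 7.57 and 7.57 at P21, so it stood high with Tyrp1 early and was level at P21. Trpm1 likewise read 7.24 and 5.82 at P3 and 5.76 and 5.78 at P21. Rab38 and Oca2 differed the other way at P3, by -0.36 log2 units each, and Myo5a by -0.30 at P3 and -0.34 at P21. Tyrp1 gave r = 0.86 with Pmel and 0.86 with Trpm1 over the 12 arrays, and Dct gave 0.54 with Pmel and 0.90 with Gpnmb.

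**Figure D4:**
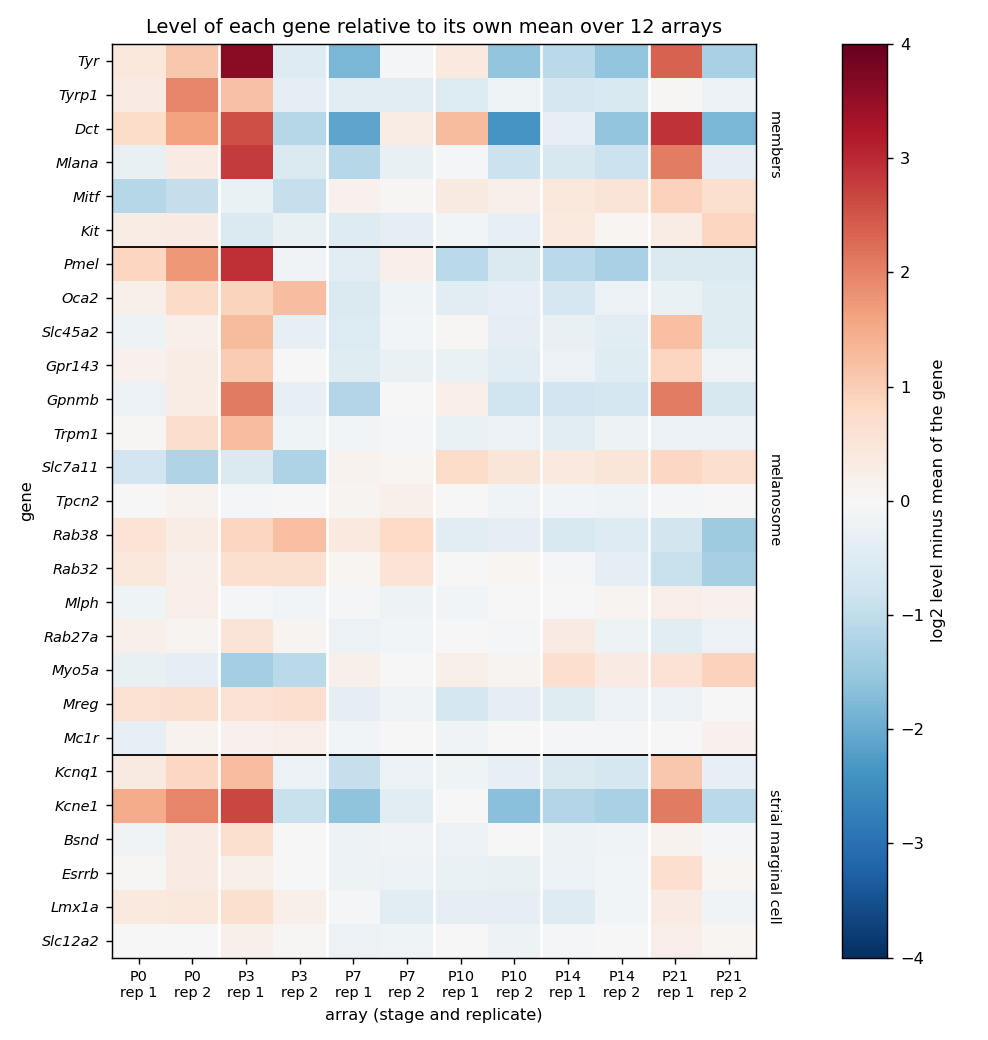
Log2 level of each gene minus its own mean over the 12 arrays (colour, red above and blue below the mean) for the 6 pigment genes, 15 melanosome genes and 6 strial marginal cell genes (rows), over the arrays in order of stage (columns). P3 replicate 1 and P21 replicate 1 are red for Tyr, Dct, Mlana, Slc45a2, Gpr143, Gpnmb, Kcnq1 and Kcne1, and only P3 replicate 1 of the pair is red for Pmel and Trpm1.

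Against P0, 4 of the 15 melanosome genes were called at P10 (1 higher and 3 lower) and 6 at P21 (2 higher and 4 lower), where 24.4% and 32.2% of all genes were called. The list's median log2 change was -0.27 at P10 and -0.08 at P21, beside -0.04 and 0.03 over all genes. Slc7a11, a cystine transporter that other cells use as well, rose 3.03-fold at P10 and 3.34-fold at P21 (limma adjusted p = 0.000351 and 0.000117). Myo5a, the motor that carries melanosomes and also works in neurons, rose 2.09-fold at P21. Oca2, a melanosome channel, fell, with a log2 change of -0.87 ± 0.22 at P10 (SE, adjusted p = 0.0153). Mreg fell 2.23-fold at P10, and Rab38 and Rab32, which deliver enzymes to the melanosome, fell 2.84-fold and 2.66-fold at P21. For P21 against P14 only Rab32 was called, with a log2 change of -0.90. Pmel did not pass, with -2.13 ± 0.75 at P10 (adjusted p = 0.0555). Of 13 genes for the building of lysosome-related organelles, 1 was called at P10 and 2 at P21. None was over 2-fold apart between replicates at P3 or P21, where only 0.764% and 0.951% of all genes were.

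Of 14 regulators around Mitf, 2 were called higher and 6 lower at P10, and 1 higher and 6 lower at P21, where 1997 of all 18193 genes were higher and 2450 lower at P10, and 2783 higher and 3075 lower at P21. The list had a median log2 change of -0.47 at P10 and -0.37 at P21. Lef1, an effector of Wnt signalling, fell 4.56-fold at P21, Sox5 3.94-fold, Snai2 3.38-fold and Bcl2, a survival gene under Mitf control, 3.02-fold. Tfeb, a relative of Mitf that drives lysosome genes, rose, with a log2 change of 0.66 at P10 and at P21. Sox10 and Pax3, which switch Mitf on in melanocytes, were not called: Sox10 changed by -0.39 at P10 and -0.07 at P21, and Pax3 by 0.18 and 0.47. Sox10 is also a Schwann cell gene. None of the 14 was over 2-fold apart between replicates at P3 or P21, where only 0.764% and 0.951% of all genes were.

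Of 8 ligands and receptors of melanocytes, 2 were called at P10 and 3 at P21, all lower, a share near the 24.4% and 32.2% of all genes called at these stages. Ednrb, the endothelin receptor of melanoblasts and glia, fell 4.13-fold at P10 and 4.03-fold at P21 (limma adjusted p = 9.51e-05 and 5.63e-05). Adamts20, a protease that melanoblasts need for survival, fell 5.60-fold and 4.42-fold. Edn3, the ligand of Ednrb, fell 2.41-fold at P21. Kitl, the ligand of Kit, changed by 0.24 at both stages and was not called.

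Genes of strial intermediate cells that are not pigment genes differed among themselves. Kcnj10, the potassium channel that sets the endocochlear potential and is also made by glia, rose 2.84-fold at P10 and 3.26-fold at P21, and its arrays at P21 read 11.51 and 11.50. Kcnj13 rose 4.08-fold at P10 and 5.10-fold at P21, and Ptgds rose 2.45-fold and 2.79-fold. Of 6 genes in this list these 3 were called at each of the stages, where 24.4% and 32.2% of all genes were, with a median log2 change of 0.83 at P10 and 0.75 at P21. Met, the receptor of hepatocyte growth factor, was called lower at P14, with a log2 change of -0.90, and read 10.29 on P21 replicate 1 and 9.18 on replicate 2. Gsta4 read 12.58 and 12.00 there, and the other 4 genes differed by 0.22 log2 units or less in size.

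Cells other than melanocytes that use Kit or Mitf were read from their own markers. Of 8 mast cell genes, 2 were called at P10, near the 24.4% of all genes, with Cpa3 4.53-fold and Cma1 3.38-fold lower, and at P21 the same pair was lower and Hdc higher. Fcer1a and Ms4a2 lay in the lowest 25% on all 12 arrays. The mean of the mast cell list stayed between 5.06 and 5.85. Osteoclast genes averaged 6.82 and 6.58 at P0, 8.33 and 9.08 at P7, and 6.59 and 6.68 at P21. Of 12, 8 were called higher and 1 lower at P7 against P0, where 15.0% of all genes were called. Macrophage genes averaged 7.96 and 7.76 at P0, 9.04 and 9.27 at P7, and 8.38 and 8.37 at P21, and 7 of 8 were called higher at P7. Mitf was also called higher at P7 against P0, and it was highest at P21. The part of mast cells, osteoclasts and macrophages in the Kit and Mitf values was not tested.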

How the data were processed

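RNA from 12 samples of mouse auditory nerve was hybridised to Affymetrix mouse expression arrays. Per the submitters' notes, Affymetrix Expression Console was run with RMA and MAS5. The deposited log2 values are those of RMA, which corrects background, sets quantiles equal between arrays and sums up the probes of a set, and were used as they stand. Versions are not given in the sources used here. Quantile normalization sets all arrays to one distribution, so levels are relative to the rest of an array. Precision is limited by having 2 arrays for a stage. Of 45101 probe sets, 64 controls were set aside; 34945 have 1 symbol, 932 several and 9160 none.

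Differences among the 6 stages were fitted on all arrays at once by lmFit and eBayes (limma 3.58.1, R 4.3.3), in 9 comparisons, with p-values adjusted by Benjamini-Hochberg over 45037 probe sets. The fit was tested on simulated data. The 6 genes and the 18 gene lists (144 of 150 entries matched) were chosen with earlier results of these data known. List genes are named if called at P10 or P21, up to 4 by fold, besides 8 named always, the 10 most like the pigment profile and the 5 with the largest P21 difference each way. Trpm1, Bsnd, Esrrb, Slc26a4, Met, Hdc, Tfeb, Xist and the dim markers were singled out after their values were seen. Alternatives were a replicate block, an intensity trend, array weights, dim probe sets left out, one array median, the 4 arrays of a comparison alone, the methods' t-test, both P21 arrays left out, a mean over every probe set of a gene, and each array left out.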

Additional observations from a re-analysis of the deposited data

How the results depend on the processing

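With 2 arrays per stage the fit borrows its spread from all stages, and a stage left with 1 array is assumed to vary like the others. Whether replicate numbers pair the samples is not settled: over 15 pairs of stages, deviations correlated between -0.12 and 0.32, with 6 pairs over 0.1. With the replicate number as a block, the count of pigment genes called at P3 against P0 was 0, since Kit did not pass (adjusted p = 0.0572), and no other call among the 6 genes changed. That count was also 0 with arrays shifted to one median, with the 4 arrays alone, with the mean of all probe sets, and with P3 replicate 1 and P21 replicate 1 both left out, an alternative chosen after seeing the data. At P10 against P0, 2 pigment genes were called with an intensity trend, with array weights and with those same arrays left out, and 3 with one array median. The 4 arrays alone called 5 at P14 and 0 at P7 against P3. By the methods' t-test at its own threshold, unadjusted, 0 were called at P7 against P3, and at P14 Tyr was called in place of Tyrp1. After Benjamini-Hochberg adjustment that test called 0 pigment genes at P3, P7, P10, P14 and P21 against P0 and at P7 against P3, and 0 melanosome genes at P10, at P21 and at P21 against P14. It then called 2, 4, 97, 52 and 24 probe sets in all from P3 to P21, where limma called 1703, 5011, 8695, 9655 and 12262. For P21 against P14, melanosome calls were 0 with array weights and with the 4 arrays alone.

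Some changes turned their sign. The Kit change at P7 against P3 was -0.02 with one array median, and at P21 against P0 -0.01 with the mean of all probe sets. With P3 replicate 1 and P21 replicate 1 left out, the changes were -1.26 for Tyr and -0.59 for Mlana at P3, -0.41 for Mlana at P21, -0.12 for Kit at P7 against P3 and -0.86 for Dct at P21 against P14. Averaging all probe sets, the P21 arrays differed by -0.21 in Mitf, which turned its sign, and by -0.22 in Kit, which kept it. The cause of these moves was not tested.

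Leaving out each array in turn, pigment genes called lay between 0 and 1 at P3, 1 and 3 at P7, and 1 and 2 at P10, P14 and P21 against P0, and between 0 and 1 at P7 against P3. Melanosome genes called lay between 2 and 6 at P10, 5 and 8 at P21, and 0 and 1 at P21 against P14. At P3, log2 changes lay between -1.26 and 2.85 for Tyr, -1.55 and 0.07 for Tyrp1, -2.30 and 1.43 for Dct, and -0.59 and 2.78 for Mlana. At P10 Dct lay between -3.54 and 0.11, and at P14 Kit between -0.23 and 0.08. At P21 they lay between -2.04 and 1.62 for Tyr, -2.98 and 1.72 for Dct, -0.41 and 2.04 for Mlana, and 0.00 and 0.55 for Kit. Kit at P7 against P3 lay between -0.12 and 0.15, and Dct at P21 against P14 between -0.86 and 3.85. Mitf at P7, P10 and P14 against P0 was called in every limma fit run.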
